A study of Mus musculus with 6 samples.

Results

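The 8 genes described here encode the bile acid receptors Nr1h4 (FXR) and Gpbar1 (TGR5), the FXR targets Nr0b2 (SHP) and Fgf15, the uptake carrier Slc10a2 (ASBT), the binding protein Fabp6 (IBABP) and the export subunits Slc51a and Slc51b (OST alpha and OST beta). They were taken by mouse symbol from 52550 Ensembl gene identifiers, and each symbol matched 1 identifier. RNA was sequenced from epithelial cells isolated from the colon of adult male Apc Min/+ mice of 5 to 6 weeks. The atorvastatin group (3 libraries) received 20 mg/kg of the statin by gavage on alternate days, and the control group (3 libraries) received the vehicle, 2% Tween 80, in the same way. All mice of both groups carried the Apc Min allele, a germline mutation of 1 copy of a tumour suppressor gene that leads to intestinal adenomas, so there is no group without it. The labels do not say whether each library came from a separate animal or whether adenoma tissue was included, and p-values therefore measure only the spread between these libraries, which may be partly technical.

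Bile acids are made from cholesterol in the liver, and most of them are taken up again at the end of the small intestine. There Slc10a2 carries them across the apical membrane, Fabp6 binds them in the cytosol, and the Slc51a and Slc51b heterodimer passes them to the blood. In the nucleus they activate FXR, which pairs with a retinoid X receptor and induces Nr0b2, Fabp6, both Slc51 genes and, in the ileum, Fgf15, a hormone that represses bile acid synthesis in the liver. Bile acids that escape reabsorption reach the colon, where bacteria modify them. A statin lowers the synthesis of their precursor, cholesterol.

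The isolates carried the markers of colon epithelium. Epcam, an epithelial adhesion gene, had 479 to 536 FPKM (fragments per kilobase of gene, scaled to the mapped fragments of the library) with atorvastatin and 534 to 565 FPKM in control. Vil1, of the brush border, had 205 to 227 and 208 to 235 FPKM. The colon factor gene Hoxb13 had 67.6 to 70.9 FPKM with atorvastatin and 58.1 to 70.2 FPKM in control. Gata4, a factor of the proximal small intestine, stayed between 0.0591 and 0.132 FPKM over the 6 libraries, and Apoa4, Apoc3 and Lct, of small intestinal enterocytes, at or below 0.0247 FPKM. Other genes of that list were expressed over the 6 libraries, with Fabp2 at 164 to 223, Slc5a1 at 37.1 to 43.5, Rbp2 at 4.01 to 9.92, Alpi at 3.63 to 8.37, Apob at 2.52 to 6.51 and Enpep at 0.447 to 1.93 FPKM. The totals of the libraries were 407857 to 430832 FPKM, of which 30.3% to 33.2% belonged to mitochondrial genes. The commonest product of value and length among genes with 1 transcript implied about 36400000 to 41700000 fragments per library, with control replicate 3 the deepest.

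The 8 genes fell into a group of 5 that was well expressed and a group of 3 that was close to 0. Nr1h4, Slc51b, Slc51a, Slc10a2 and Fabp6 had at least 1 FPKM in at least 3 libraries and were tested. Nr0b2, Fgf15 and Gpbar1 did not pass this filter in either group and are described by their values. With the threshold at a limma adjusted p of 0.05, none of the 5 was called, and 47 of 11644 tested genes were (0.404%). In none of the 5 were the values of the groups separate, against 18.1% of tested genes. One of the 5, Fabp6, had an unadjusted p under 0.05, as had 1399 of all tested genes (12.0%), and the smallest adjusted p, 0.361 in limma's test, was also that of Fabp6. The median log2 fold change, on the log2(FPKM + 1) scale and atorvastatin minus control, was 0.07 over the 5 genes and 0.02 over all tested genes.

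**Figure D1:**
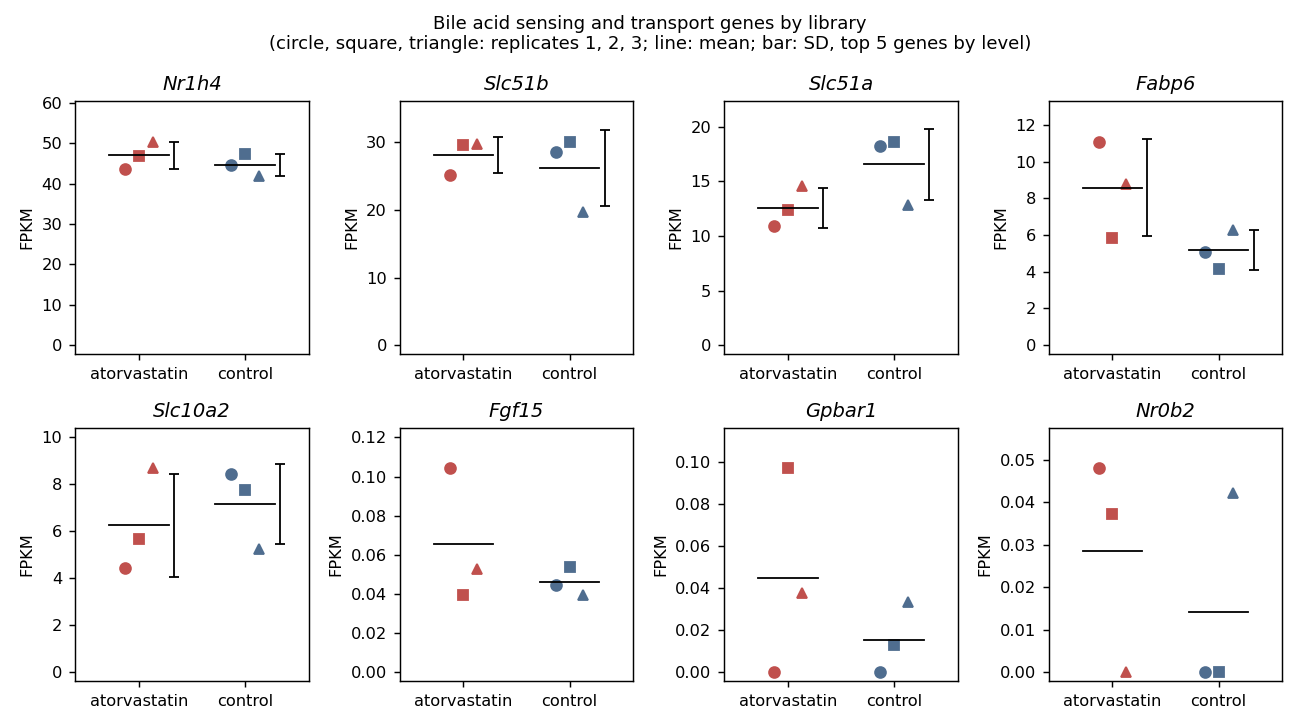
FPKM of the 8 bile acid genes in each library, atorvastatin left of control, each panel with its own linear axis. Points are libraries, horizontal lines are means, and bars beside the 5 better expressed genes are SDs. The groups overlap in every panel, and Fgf15, Gpbar1 and Nr0b2 stay at or below 0.104 FPKM.

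Nr1h4 was the most abundant of the 8 genes. It encodes FXR, the nuclear receptor for bile acids (ENSMUSG00000047638, GRCm38 chromosome 10, 89454234 to 89533585, minus strand). Its level was 43.7, 46.9 and 50.4 FPKM in the atorvastatin libraries, against 44.6, 47.4 and 42.0 FPKM in the control libraries. The groups overlapped over most of their range, with the highest value in replicate 3 of atorvastatin and the lowest in replicate 3 of control. The log2 fold change was 0.07 ± 0.07 (SE), with a 95% interval of -0.10 to 0.24 and a limma adjusted p of 0.765. On the FPKM + 1 scale that interval spans 0.935-fold to 1.18-fold, so of the 5 tested genes this one is bounded most tightly. By the mean over 6 libraries it ranked 889th of all gene identifiers.

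Gpbar1 encodes the bile acid receptor of the cell surface (ENSMUSG00000064272, chromosome 1, 74278550 to 74279624, plus strand). It was listed at 0, 0.0969 and 0.0377 FPKM with atorvastatin and at 0, 0.0127 and 0.0334 FPKM in control. These values stand for 0, 3.87 and 1.50 fragments against 0, 0.497 and 1.50 fragments, if the implied depth and the annotated transcript of 1075 bases hold. A count of 3 fragments would give 0.0668 to 0.0766 FPKM at this length, so 5 of the 6 libraries were below that floor and no difference was detectable at this depth. The receptor is known from enteroendocrine and immune cells, and in bulk samples fewer cells of a type and less RNA per cell cannot be told apart.

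The direct FXR targets Nr0b2 and Fgf15 were also near 0 in both groups. Nr0b2 encodes SHP, a repressor without a DNA-binding domain (ENSMUSG00000037583, chromosome 4, 133553376 to 133556536, plus strand). It was listed at 0.0480, 0.0373 and 0 FPKM with atorvastatin, against 0, 0 and 0.0423 FPKM in control, or 2.00, 1.57 and 0 fragments against 0, 0 and 2.00 fragments. Fgf15 encodes the intestinal hormone that acts on the liver (ENSMUSG00000031073, chromosome 7, 144896531 to 144900953, plus strand). It had 0.104, 0.0396 and 0.0529 FPKM with atorvastatin and 0.0447, 0.0538 and 0.0392 FPKM in control. For both genes the groups overlapped, with exact permutation p = 0.7 for Nr0b2 and p = 0.6 for Fgf15 on FPKM (two-sided, n = 3 each), where 3 against 3 libraries cannot go below 0.1. These targets thus stayed at or below 0.104 FPKM where Nr1h4 had 42.0 to 50.4 FPKM, while the FXR targets Fabp6, Slc51a and Slc51b, described next, had 4.18 to 11.1, 10.9 to 18.7 and 19.7 to 30.1 FPKM.

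Slc10a2 encodes ASBT, the sodium-dependent carrier that takes up bile acids (ENSMUSG00000023073, chromosome 8, 5083219 to 5105351, minus strand). It had 4.42, 5.68 and 8.68 FPKM with atorvastatin and 8.46, 7.78 and 5.23 FPKM in control, which corresponds to 675 to 1334 fragments per library over its transcript of 4152 bases. Replicates 1 and 2 of atorvastatin and replicate 3 of control were low, and replicate 3 of atorvastatin reached the level of the 2 high controls. The log2 fold change was -0.19 ± 0.25, with an interval of -0.78 to 0.40 (limma adjusted p = 0.830). Without atorvastatin replicate 1 it was 0.00245, so the direction rested on that library.

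Fabp6 encodes the ileal bile acid binding protein (ENSMUSG00000020405, chromosome 11, 43596049 to 43601540, minus strand). Of the 5 tested genes it had the largest log2 fold change. It had 11.1, 5.85 and 8.81 FPKM with atorvastatin against 5.10, 4.18 and 6.31 FPKM in control, from 72.9 to 196 fragments per library. Replicate 2 of atorvastatin lay below replicate 3 of control, and the other atorvastatin libraries lay above all controls. The means were 8.59 ± 2.64 and 5.19 ± 1.07 FPKM (SD, n = 3 each), a ratio of 1.65. The log2 fold change was 0.61 ± 0.22, with an interval of 0.07 to 1.14 and an unadjusted p of 0.0325, which did not pass over all genes (limma adjusted p = 0.361, with 0.172 and 0.622 as the extremes under other settings). The exact permutation p on FPKM was 0.2 (two-sided). Leaving out 1 library at a time gave log2 fold changes of 0.42 to 0.83, positive in all 6 fits.

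The bases before the Fabp6 start are shown because FXR is known to act on this promoter, and the start regions of Slc51b and Slc51a are shown beside it because these subunits form 1 transporter. Sequences are from RefSeq (GRCm38.p6), 5′ to 3′ on the gene's strand, and lie at chr11:43601563-43601812 (Fabp6), chr9:65422949-65423023 (Slc51b) and chr16:32487880-32488129 (Slc51a), all on the minus strand. Capitals mark matches to an inverted repeat (GGTNA, any base, TNACC) or to the single receptor motif AGGTCA on either strand.
Fabp6: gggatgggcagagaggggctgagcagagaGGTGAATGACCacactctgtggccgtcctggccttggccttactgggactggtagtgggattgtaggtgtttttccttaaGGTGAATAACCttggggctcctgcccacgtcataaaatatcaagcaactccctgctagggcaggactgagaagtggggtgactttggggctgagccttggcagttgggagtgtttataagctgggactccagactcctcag
Slc51b: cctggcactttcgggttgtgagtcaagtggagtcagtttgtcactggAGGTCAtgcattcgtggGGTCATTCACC
Slc51a: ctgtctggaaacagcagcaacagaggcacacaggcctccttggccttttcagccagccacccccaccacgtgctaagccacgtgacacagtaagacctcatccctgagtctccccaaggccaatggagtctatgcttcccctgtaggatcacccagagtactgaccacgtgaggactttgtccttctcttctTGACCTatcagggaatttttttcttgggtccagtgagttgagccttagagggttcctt
The inverted repeat reads the same on both strands and was chosen after these letters had been read. Of the FXR and RXR element it leaves free the outer bases, the centre and, on each side of the centre, 1 inner base. In the 250 bases before each start it was found in 72 of 32851 RefSeq windows (0.219%). Of the 7 genes with a window it was found in Fabp6, at 221 and 141 bases before the start, and in Slc51b, at 186 bases. The strict form (AGGTCA, any base, TGACCT) was in 2 windows (0.00609%) and in none of the 7. AGGTCA was in 14.0% of windows, and in those of Nr1h4, Slc51a and Slc51b. TCAAGGTCA, of the NR5A2 type, was in 0.387%, and GATAAG, of the GATA type, in 6.55% of windows, and neither was in a window of the 7. GENCODE places the start of Slc51b within the RefSeq window, at 65422955, so the printed stretch ends there with the repeat, 7 of whose 11 bases lie inside the GENCODE gene. The distance of 186 bases holds for the RefSeq start only. The windows of Slc10a2 and Gpbar1 also reach into their GENCODE genes. That of Nr1h4 (89506659 to 89506908) lies wholly inside its GENCODE gene, so its AGGTCA match is not before the GENCODE start. A match describes letters and does not show binding.

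Slc51a and Slc51b encode the subunits of the basolateral exporter, which is functional as a heterodimer. Slc51a (ENSMUSG00000035699, chromosome 16, 32474504 to 32487879, minus strand) had 10.9, 12.4 and 14.5 FPKM with atorvastatin, against 18.3, 18.7 and 12.8 FPKM in control. Replicate 3 of control lay within the range of the atorvastatin libraries, and the other controls lay above all of them. The means were 12.6 ± 1.84 and 16.6 ± 3.27 FPKM, and the log2 fold change was -0.36 ± 0.16, with an interval of -0.74 to 0.02 (limma adjusted p = 0.437). Without control replicate 3 the log2 fold change was -0.53, still without a call (limma adjusted p = 0.127, the lowest of all settings, where the highest was 0.689).

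Slc51b (ENSMUSG00000053862, chromosome 9, 65412714 to 65422955, minus strand) had 25.1, 29.6 and 29.7 FPKM with atorvastatin and 28.6, 30.1 and 19.7 FPKM in control, from 584 to 781 fragments over its transcript of 709 bases. Replicate 3 of control was the lowest of the 6 and replicate 2 of control the highest. The log2 fold change was 0.12 ± 0.16, with an interval of -0.26 to 0.50 (limma adjusted p = 0.830), and it turned to -0.06 without control replicate 3.

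The ratio of the subunits within a library does not depend on the scaling of libraries, and it separated the groups. It does depend on the transcript lengths that the quantification assumed. Slc51a has 3 annotated transcripts of 1349 to 2618 bases, and Slc51b has 1 of 709 bases. The part of transcript use in the ratio was not tested. Slc51a divided by Slc51b was 0.434, 0.417 and 0.490 in the atorvastatin libraries, against 0.638, 0.620 and 0.650 in the control libraries. All atorvastatin libraries lay below all control libraries, and replicate 3 of control, low for both subunits, lay with its group. The mean ratios were 0.447 ± 0.038 and 0.636 ± 0.015 (SD, n = 3 each), and the mean log2 ratio differed by -0.51 ± 0.07 (SE), or 0.701-fold. The exact permutation p was 0.1, the smallest that 3 against 3 libraries allow, and 0.429 after Benjamini-Hochberg adjustment over the 10 pairs of tested genes. These pairs were compared after the values had been seen. The ratio to Slc51b was separate between groups for 4.29% of the other tested genes, and lower with atorvastatin for 3.74%. With each library left out in turn the difference of the log2 ratio was -0.58 to -0.46.

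The other pair out of 10 whose ratio was separate was Nr1h4 to Slc51a, at 4.01, 3.79 and 3.47 with atorvastatin against 2.44, 2.54 and 3.28 in control. Its log2 difference was 0.46 ± 0.15 (exact permutation p = 0.1, adjusted p = 0.429). The ratio to Slc51a was separate for 15.7% of the other tested genes. With each library left out in turn the difference was 0.38 to 0.59. In contrast, the ratio of Nr1h4 to Slc51b was 1.74, 1.58 and 1.70 against 1.56, 1.57 and 2.13, with overlap, so both separate pairs included Slc51a.

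**Figure D2:**
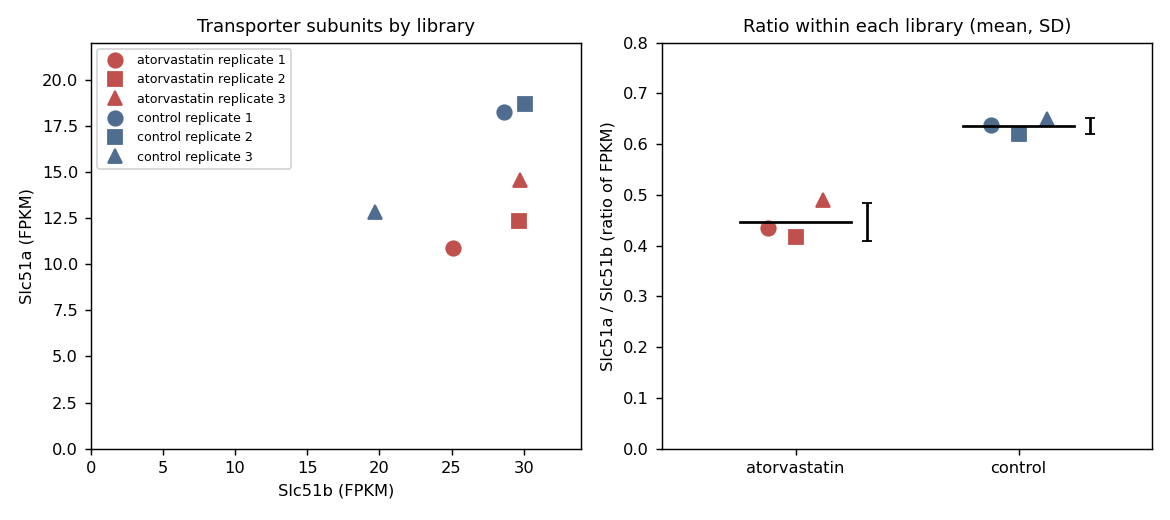
Left, FPKM of Slc51a against FPKM of Slc51b, 1 point per library; right, the ratio of the 2 values in each library with mean and SD, atorvastatin left of control. The atorvastatin ratios lie between 0.417 and 0.490 and the control ratios between 0.620 and 0.650.

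The strand setting of the counting was not given in the sources used here, and both subunit genes overlap a gene on the other strand. Of 3198 annotated exon bases of Slc51a, 567 are shared with Pcyt1a, which had 14.4, 15.0 and 14.9 FPKM with atorvastatin and 14.1, 14.2 and 6.43 FPKM in control. Pcyt1a was thus about level in 5 libraries and low in control replicate 3, and reads from the shared bases cannot be told apart. Slc51b shares 91 of 709 bases with Rasl12, which stayed at or below 0.153 FPKM. Fgf15 also overlaps genes on the other strand, both listed at or below 0.0196 FPKM.

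Of the marker lists of other cells, the leukocyte sum separated the groups. The 16 leukocyte markers summed to 12.2 to 14.9 FPKM with atorvastatin and to 21.8 to 47.7 FPKM in control. All 9 that were tested had negative log2 fold changes, with a median of -0.80, but none was called. Ptprc, the common leukocyte gene, had 0.688, 0.824 and 1.17 FPKM with atorvastatin against 1.81, 1.98 and 1.15 FPKM in control, and Cpa3, of mast cells, was at 0 in the atorvastatin libraries. The macrophage and dendritic cell markers summed to 15.9 to 22.7 and 16.9 to 25.5 FPKM, with Cd14 alone at 12.2 to 18.7 FPKM. Below it, Lyz2 (means 1.15 and 2.94 FPKM), Itgax (0.207 and 0.548), Csf1r (0.0725 and 0.281) and Adgre1 (0.0124 and 0.107) were separate and lower with atorvastatin. Mrc1 was separate and higher (0.323 and 0.174), and the rest overlapped. Of the separate ones only Lyz2 was tested, and it was not called. Stromal markers summed to 1.57 to 1.79 and 1.43 to 2.54 FPKM. The 7 epithelial ones summed to 4247 to 4410 and 4418 to 4615 FPKM, narrowly separate, with Krt8 alone at 2625 to 2871 FPKM. In control replicate 3, where the leukocyte sum was the lowest of the controls, the subunit ratio was the highest, at 0.650. The part of these cells in the ratio was not tested.

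The order of levels was the same at the top in all 6 libraries, with Nr1h4 above Slc51b and Slc51b above Slc51a. The 2 lowest of the 5 changed places, since Fabp6 was above Slc10a2 in 3 of 3 atorvastatin libraries and in 1 of 3 control libraries. Their ratio was 2.51, 1.03 and 1.02 with atorvastatin against 0.603, 0.537 and 1.21 in control, with overlap (exact permutation p = 0.3). In atorvastatin replicate 1 Fabp6 was also above Slc51a, by 11.1 to 10.9 FPKM, which was within the spread of either gene.

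The same library in each group held an extreme value of all 5 tested genes. Nr1h4, Slc51b, Slc51a and Slc10a2 (4 of the 5 tested genes) had their lowest atorvastatin value in replicate 1 and their lowest control value in replicate 3, as did 10.9% of all tested genes. Fabp6 had its highest value in each group in the same libraries, as did 8.61% of tested genes. These patterns were noticed after the values were seen. Of the 6 tested small intestinal genes 5 (Alpi, Apob, Enpep, Fabp2 and Rbp2) had their lowest values in the same libraries, as had 4 of 10 colonocyte genes (Aqp8, Car1, Hoxa13 and Hoxd13) and 2 of 7 epithelial markers (Krt8 and Krt20). Aqp4, a water channel on the colonocyte list, was highest in both, like Fabp6. The part of cell makeup in the spread was not tested. Without both of these libraries, an alternative added after the data were seen, none of the 5 genes was called, and the log2 fold changes were 0.55 for Fabp6 and -0.43 for Slc51a.

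**Figure D3:**
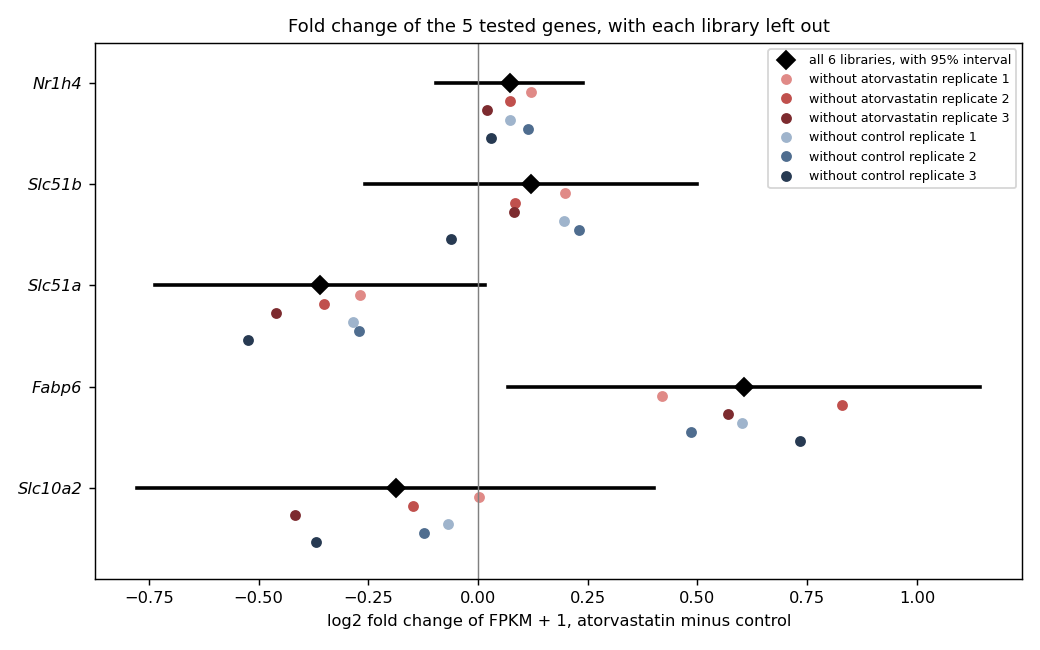
Log2 fold changes of FPKM + 1 (atorvastatin minus control) of the 5 tested genes, black diamonds with 95% intervals for all 6 libraries and coloured points with 1 library left out. Fabp6 stays between 0.42 and 0.83 and Slc51a between -0.53 and -0.27, while Slc51b and Slc10a2 cross 0 without control replicate 3 and without atorvastatin replicate 1.

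The genes around this route ranged from well expressed ones to ones listed at 0, with others in between. Of 15 bile acid synthesis genes, 6 were tested and none was called (median log2 fold change 0.03). Cyp7a1, the rate-limiting enzyme of the classical pathway, was listed at 0 in all 6 libraries. Cyp8b1, which makes cholic acid, stayed at or below 0.0141 FPKM. Expressed were enzymes that also act in other pathways, such as the peroxisomal Hsd17b4 (23.8 ± 1.21 FPKM with atorvastatin and 22.3 ± 1.20 in control) and Amacr (2.24 ± 0.215 and 2.34 ± 0.0497). Hsd3b7, a sterol dehydrogenase, had 6.05 ± 0.418 and 6.59 ± 0.421 FPKM. Cyp39a1, an oxysterol hydroxylase, had 10.8, 9.89 and 10.6 FPKM against 7.23, 9.61 and 7.98 FPKM, separate groups whose difference of 0.31 ± 0.10 on the log2 scale did not pass (limma adjusted p = 0.267).

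Of 13 other bile acid transporters, 6 were tested and none was called (median 0.08). Slc10a1, the liver uptake carrier, stayed at or below 0.135 FPKM and Abcb11, the canalicular exporter, at or below 0.00698 FPKM. Abcc3, a basolateral exporter, was the alternative exit with a high level, at 57.6, 61.8 and 60.8 FPKM with atorvastatin and 60.0, 58.5 and 53.4 FPKM in control (log2 fold change 0.07 ± 0.06, limma adjusted p = 0.736). It was thus above Slc51a and Slc51b in every library, on a scale per length. Abcb1a, an apical drug exporter, had 101, 101 and 92.3 FPKM against 63.1, 87.3 and 61.1 FPKM. Its groups were separate, but the difference (0.49 ± 0.13 on the log2 scale) did not pass, with a limma adjusted p of 0.213. The gene has a copy of similar sequence that could share some reads. Of 19 other settings it passed in that without control replicate 2 (limma adjusted p = 0.0394). Abcc4, a basolateral exporter, had 2.18, 2.81 and 2.45 against 2.11, 1.91 and 1.95 FPKM (limma adjusted p = 0.359). Slco2b1, an uptake carrier, had 1.68 ± 0.432 and 2.08 ± 0.313 FPKM (limma adjusted p = 0.608).

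Among the other bile acid receptors and FXR partners, 12 of 16 genes were tested and none was called, with a median log2 fold change of -0.03. Rxra, the retinoid X receptor that pairs with FXR, had 13.3, 14.1 and 14.0 FPKM with atorvastatin against 15.7, 15.1 and 14.9 FPKM in control. The groups were separate, and the log2 fold change was -0.14 ± 0.05 (limma adjusted p = 0.339). Vdr, the vitamin D receptor, which lithocholic acid also activates, had 82.9 ± 1.09 and 80.0 ± 6.92 FPKM, above Nr1h4. Sirt1, a deacetylase that acts on FXR, had 13.4 ± 3.68 and 16.1 ± 2.26 FPKM (limma adjusted p = 0.685).

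Of 12 transcription factors known for Slc10a2 and the FXR axis, 10 were tested and none was called (median -0.02). Hnf4a, a factor of gut and liver epithelium, had 137, 149 and 140 FPKM with atorvastatin against 155, 151 and 158 FPKM in control, separate groups that differed by -0.12 ± 0.05 on the log2 scale (limma adjusted p = 0.445). Nr5a2, the liver receptor homologue that drives Slc10a2 in mice and is repressed by SHP, had 15.1 ± 0.842 and 16.3 ± 1.14 FPKM. Nr3c1, the glucocorticoid receptor, had 14.9, 14.3 and 15.6 against 15.2, 16.0 and 8.30 FPKM, low in control replicate 3, the library that was also low for both Slc51 genes.

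Fgfr4 and Klb, of the FGF15 receptor complex, had higher levels per length than Fgf15 itself. Fgfr4, the FGF15 receptor, had 5.66 ± 0.295 FPKM with atorvastatin and 5.32 ± 0.247 FPKM in control, and its partner Klb had 1.70 ± 0.222 and 2.13 ± 0.469 FPKM. Malrd1 (Diet1), which raises FGF15 output in mice, had 2.03, 2.04 and 2.28 against 2.58, 2.86 and 2.24 FPKM, with overlap (limma adjusted p = 0.422). None of the 5 tested genes out of 6 was called (median 0.04).

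Genes of bile acid modification and clearance (5 tested of 10, median log2 fold change 0.07) and further intestinal genes that respond to FXR (5 tested of 8, median 0.01) held no called gene. Ugt2b34, a glucuronosyltransferase, had 119, 120 and 125 FPKM with atorvastatin against 110, 117 and 107 FPKM in control (log2 fold change 0.12 ± 0.06, limma adjusted p = 0.450). Cyp3a13, a cytochrome P450, had 34.8 ± 2.01 and 38.1 ± 5.57 FPKM. Cyp2c70, which makes muricholic acids in mouse liver, was under the filter and not tested. It was listed at 0.0822, 0.0607 and 0.0673 FPKM against 0.0135, 0 and 0 FPKM, close to 0 like Gpbar1. Its gene family has similar sequences that could share reads. Among the FXR-responsive genes, Sdc1, a heparan sulfate proteoglycan, had 44.7 ± 3.86 and 49.0 ± 2.64 FPKM, Ang, an antimicrobial ribonuclease, 13.8 ± 3.47 and 15.2 ± 0.654 FPKM, and Il18, an epithelial cytokine, 61.5 ± 2.36 and 59.1 ± 9.11 FPKM.

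**Figure D4:**
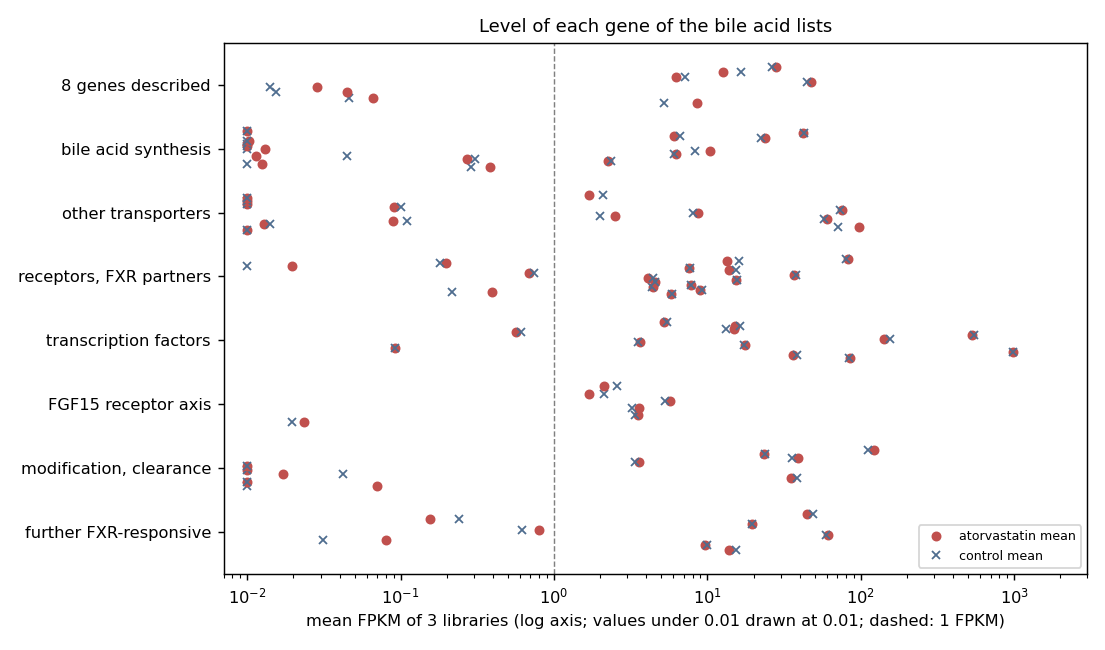
Mean FPKM (log axis) of each gene of the bile acid lists, with atorvastatin as red circles and control as blue crosses; the dashed line is 1 FPKM and values under 0.01 are drawn at 0.01. Cyp7a1 and other genes at 0 sit at the left edge, and for genes above 1 FPKM the 2 means lie close together, with Slc51a, Fabp6 and Abcb1a among the wider pairs.

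The endocrine cell genes held the only called gene of these lists. Endocrine cells are among those known to carry Gpbar1, and their genes are given for that reason. All 6 were tested, and Gcg, which encodes proglucagon, passed and was higher with atorvastatin, at 29.0, 27.8 and 22.6 FPKM against 15.3, 16.6 and 16.0 FPKM in control (a log2 difference of 0.69 ± 0.09 with a limma adjusted p of 0.0402). It was no longer called under 9 of 19 other settings, among them 5 of the 6 that leave out 1 library, while its log2 fold change stayed between 0.62 and 0.79 over all 19. Pyy, the peptide YY gene, had 12.3, 13.8 and 11.3 against 9.65, 7.81 and 8.28 FPKM, and Chga, of secretory granules, 20.7, 17.4 and 17.1 against 13.1, 12.0 and 14.3 FPKM (limma adjusted p = 0.0974 and 0.112). Insl5, a hormone of colonic endocrine cells, had 23.1 ± 2.92 and 17.4 ± 3.12 FPKM. The log2 fold changes of all 6 were positive (median 0.42), while Gpbar1 itself stayed at a few fragments.

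Region markers were examined because Slc10a2 and Fabp6 are known from the ileum. Of 10 colonocyte genes none was called (median log2 fold change 0.02). Hoxd13, a gene of the hindgut, had 13.6, 18.3 and 15.5 FPKM with atorvastatin against 11.5, 9.22 and 7.12 FPKM in control, separate groups that differed by 0.72 ± 0.17 on the log2 scale (limma adjusted p = 0.164). Car4, a carbonic anhydrase of surface cells, had 60.9 ± 14.1 and 97.1 ± 40.4 FPKM. Of 16 small intestinal genes 6 were tested and none was called (median -0.08). Alpi, an intestinal alkaline phosphatase, had 3.63, 5.01 and 5.01 against 8.37, 6.99 and 5.53 FPKM, and Enpep, an aminopeptidase, 0.447, 0.592 and 1.21 against 1.63, 1.93 and 0.869 FPKM (limma adjusted p = 0.262 and 0.419). Fabp2, a fatty acid binding protein, had 210 ± 14.8 and 195 ± 29.5 FPKM. The part of the sampled colon segment in the subunit ratio was not tested.

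**Figure D5:**
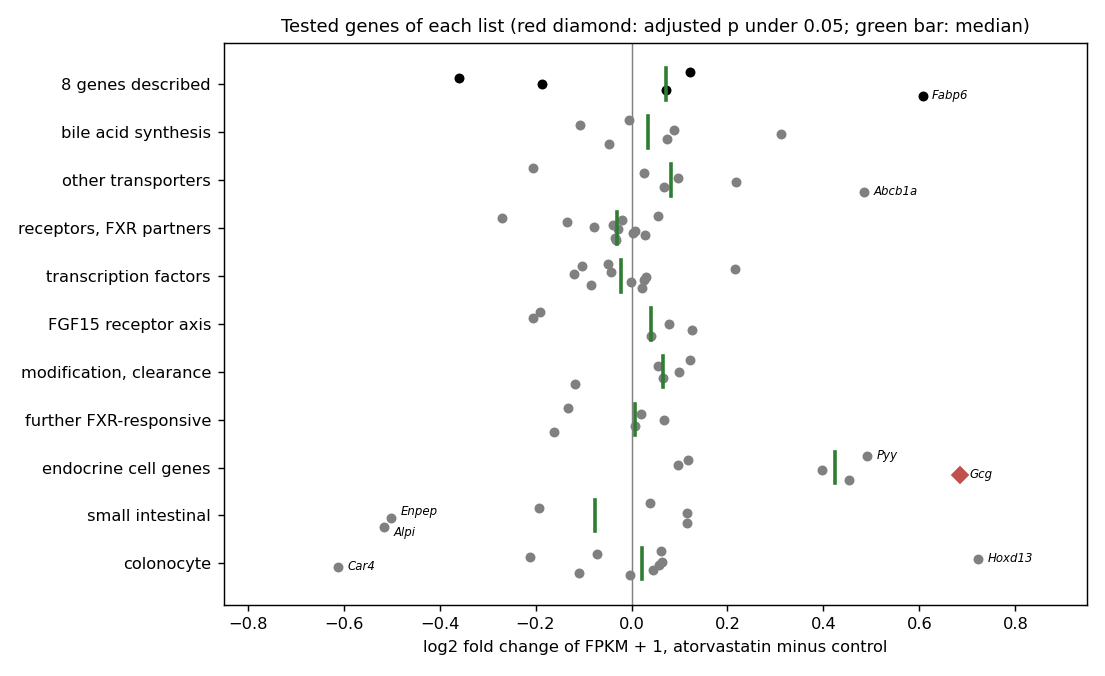
Log2 fold changes of FPKM + 1 (atorvastatin minus control) of the tested genes of each list, with green bars at list medians and genes beyond 0.47 named. Gcg (red diamond) is the gene with an adjusted p under 0.05; the 5 tested bile acid genes run from -0.36 for Slc51a to 0.61 for Fabp6.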

How the data were processed

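The deposited values were FPKM, 1 value per gene and library; the files hold no counts. The tools named are Bowtie (no version) and FastQC 0.11.2, with the build mm10, per the submitters' processing notes. The quantification tool, the annotation and the strand setting are not given in the sources used here. Names came from a table that matched 99.72% of identifiers, and positions from GENCODE M21 (GRCm38, which mm10 denotes).

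Genes that reached 1 FPKM in 3 or more of the 6 libraries were compared on log2(FPKM + 1), a scale that understates changes of low genes, with limma 3.58.1 in R 4.3.3 (trended, robust, two-sided, Benjamini-Hochberg over 11644 genes, threshold 0.05). The fit was tried on simulated data, with planted changes larger than any of the tested bile acid genes. That trial does not show whether changes of their size could be called. Single values were compared with exact permutation tests (scipy 1.17.1), whose smallest p is 0.1. The members and lists were chosen with earlier results of these data known, and no set test was made. Beside the 8 genes, up to 4 genes per list with the smallest p were named, with the anchor genes Epcam, Vil1, Ptprc, Gata4 and Hoxb13; some genes of these lists are not reported here.

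In genes of 1 transcript of 400 to 5000 bases, the commonest product of FPKM and length in kilobases was shared by 377 to 446 genes per library and was taken as 1 fragment. Of values under 20 such steps, 22.1% to 24.3% lay within 0.02 of a whole multiple, so reads were not recovered and no count test was run. The implied fragment numbers are estimates that also carry the error of this depth and of the assumed transcript length; floors cover counting error only. The alternatives covered filters, pseudocounts, scalings, the replicate block and libraries left out.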

Additional observations from a re-analysis of the deposited data

How the results depend on the processing

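No bile acid gene of the 5 tested was called under any of 18 alternatives or without control replicate 3 and atorvastatin replicate 1 together, which was added after the data were seen. Nr1h4, Fabp6 and Slc51a kept their direction under all of these. With 1 library left out, the log2 fold change of Slc10a2 ran from -0.416 to 0.00245 and turned positive without atorvastatin replicate 1, and that of Slc51b ran from -0.0620 to 0.231 and turned negative without control replicate 3. In the same way Vdr ran from -0.00959 to 0.114, Nr3c1 from -0.0645 to 0.372, Il18 from -0.0646 to 0.142 and Fabp2 from -0.00146 to 0.219. Without both libraries Vdr was at -0.0196 and Nr3c1 at -0.0627.

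The number of genes called, 47 of all tested, was 2 with no filter on low values, 88 when scaled to epithelial markers, 1 with the replicate block and 19 without both libraries, and it ran from 2 to 67 with 1 library left out. Deviations of same-numbered libraries correlated at -0.14, -0.11 and 0.01 across genes, and those of differently numbered ones at -0.05 to 0.16. No pairing by replicate number was thus seen, though so few libraries cannot exclude it. The block also uses up residual degrees of freedom, so the loss of calls under it is no measure of effect. Of the endocrine cell genes 1 was called. This was 0 with no filter, without trend and robust variance, with the replicate block and without both libraries, 2 when scaled to epithelial markers (Gcg and Pyy), and 0 to 1 with 1 library left out. Of the other transporters 0 were called, and 0 to 1 with 1 library left out. The log2 ratio of Slc51a to Slc51b differed by -0.48 with 1 FPKM added to both values, an alternative also added after the data were seen. The causes were not tested. Scaling moved the median of all genes by at most 0.05 (log2). Depth limits Nr0b2, Fgf15 and Gpbar1.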

Other observations

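Over the 6 libraries, the tested genes whose pattern was most like that of Nr1h4, by Pearson r of log2(FPKM + 1), were Rbm41 (r = 0.975), Ccdc82 (0.974), Sqor (0.970), Prpsap1 (0.960) and Cyp2s1 (0.958). These are descriptions over 6 libraries that share depth and composition, and 71 tested genes had an r above 0.9. Sqor, a mitochondrial enzyme of sulfide oxidation, had 79.7, 81.5 and 86.1 FPKM with atorvastatin and 78.8, 83.6 and 75.3 FPKM in control.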
